A study of Caenorhabditis elegans with 20 samples.

Results

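Cytosolic heat shock proteins and HSF-1 were followed through adult worms of 5 Caenorhabditis elegans strains that differ in the breakdown of branched-chain amino acids or in a ubiquitin ligase. The 10 genes were taken by symbol from the 46284 genes of the deposited expression table: the small heat shock proteins hsp-16.1, hsp-16.11, hsp-16.2, hsp-16.41 and hsp-16.48, the HSP70 proteins hsp-70 and hsp-1, hsp-90, hsp-110, and the transcription factor hsf-1.

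The table gives messenger RNA levels of whole worms on day 1 of adulthood, grown at 20 °C on OP50 bacteria, as FPKM (fragments per kilobase of transcript, scaled to the mapped fragments of the sample). There were 4 replicates of each strain, 20 samples in all, which by the methods came from independent experiments. The strains were wild-type Bristol N2, hecd-1(tm2371), bcat-1(hh58), ivd-1(tm6784) and a strain with both of the last alleles, ivd-1(tm6784); bcat-1(hh58), called the double mutant, and the strains had been outcrossed. IVD-1 is isovaleryl-CoA dehydrogenase, an enzyme of leucine breakdown, BCAT-1 is the branched-chain aminotransferase that takes the first step for leucine, isoleucine and valine, and HECD-1 is an E3 ubiquitin ligase. The bcat-1(hh58) allele carries an early stop made with CRISPR, and is described as viable because a shorter protein may still be made. For strains that develop slowly the methods shifted either synchronization or collection and checked by eye that worms carried eggs, and which of these applied to each strain is not given in the sources used here. No strain was heated.

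Heat shock proteins are chaperones. In the cytosol small heat shock proteins hold unfolding proteins in solution, HSP70 proteins fold them in cycles of ATP use with J-domain proteins and nucleotide exchange factors such as HSP110, and HSP90 completes the folding of kinases and receptors with its own co-chaperones. HSF-1 binds heat shock elements in their promoters, drives the inducible genes strongly after heat, and in worms without heat is also needed for larval development and for the germline.

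FPKM summed to between 1004157 and 1136133 per sample, and the depth of the samples relative to each other, read from genes with few fragments, lay between 0.887 and 1.08. Read numbers are not known. A pattern in the table touched 1 member: 286 genes had 0 FPKM in part of the samples and at least 10 FPKM elsewhere, and hsp-110 was 1 of them. Because samples are whole worms, fewer cells of a type and less RNA per cell cannot be told apart.

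The hsp-16 genes lie on chromosome V in the WBcel235 assembly in 2 places, and their order is given first because near-identical copies decide which values can be read. The pair hsp-16.2 (V:1804334-1804957, minus strand) and hsp-16.41 (V:1805178-1805875, plus strand) point away from each other with 220 bases between their starts. The other place holds hsp-16.1 (V:9087293-9087782, minus strand), hsp-16.48 (V:9088131-9088617, plus strand), hsp-16.49 (V:9089280-9089766, minus strand, not among the 10 genes) and hsp-16.11 (V:9090077-9090604, plus strand), an inverted repeat of 2 pairs with 348 and 310 bases between their starts. Each of these genes has 2 exons and no other annotated gene overlaps it.

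**Figure D1:**
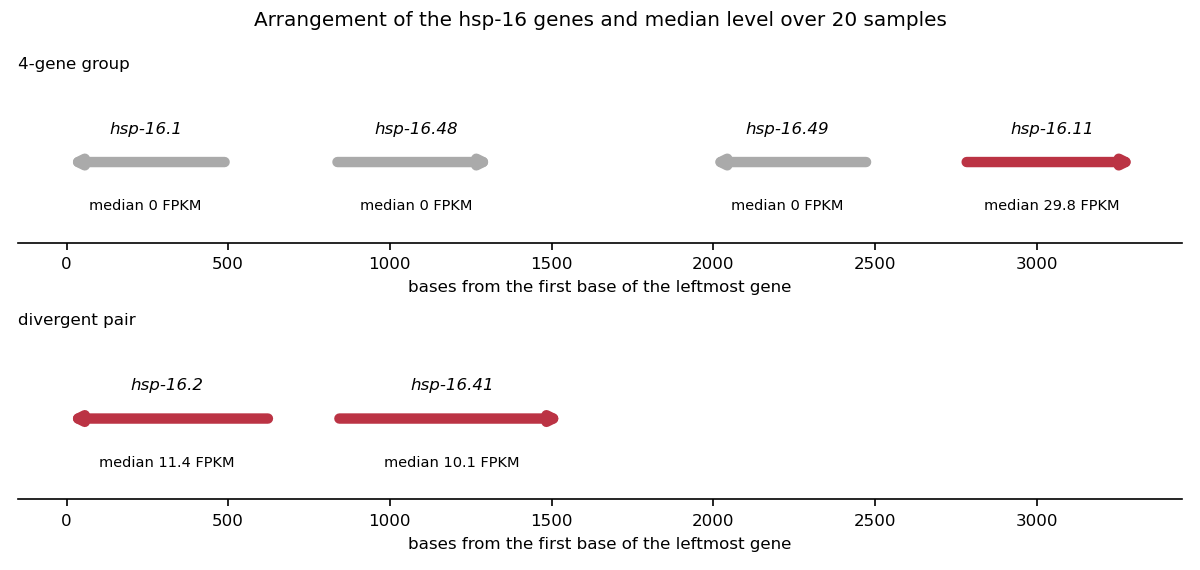
The hsp-16 genes drawn to scale as arrows in the direction of transcription, with bases from the first base of the leftmost gene on the horizontal axis and the median FPKM over 20 samples under each gene. Red marks a median above 0 and grey a median of 0, and in the group of 4 genes only hsp-16.11, at 29.8 FPKM, had a median above 0.

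Almost all signal of the 4-gene group was assigned to hsp-16.11. Its near-identical copy hsp-16.1 was listed at 0 in 19 samples and at 0.128 FPKM in replicate 2 of bcat-1. Of the other pair of copies, hsp-16.48 was at 0 in all 20 samples, and hsp-16.49 was above 0 in 4 samples at 0.119 to 0.138 FPKM. Multiplied by relative depth those 4 values spanned 0.128 to 0.131, which is nearly 1 common value, as single fragments would give. The split between copies depends on how fragments that match several of them were assigned, which is not given in the sources used here. The values of hsp-16.11 are therefore read as those of hsp-16.1 and hsp-16.11 together. That reading does not cover hsp-16.48 and hsp-16.49, which were both at or near 0. The zeros of hsp-16.1 and hsp-16.48 are not read as absence of expression.

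Of the 10 genes, 8 passed the filter on low values (0.5 FPKM or more in at least 4 samples) and 7 were compared between strains: hsp-16.11, hsp-16.2, hsp-16.41, hsp-70, hsp-1, hsp-90 and hsf-1. The eighth, hsp-110 (III:8443910-8446909, minus strand), the exchange factor of HSP70, was listed at 0 in 12 samples and at 207 to 242 FPKM in the other 8. Those 8 were wild-type replicate 1, ivd-1 replicates 1, 2 and 4, bcat-1 replicate 4, double mutant replicate 3 and hecd-1 replicates 1 and 3. An exact 0 in such a file can be a failed estimate, so hsp-110 was given neither a mean nor a test.

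Levels per length differed widely between the members. The constitutive HSP70, hsp-1, and hsp-90 were the most abundant members, with medians over the 20 samples of 1903 and 1738 FPKM. The factor hsf-1 stood at 44.9 FPKM, hsp-16.11 at 29.8, hsp-16.2 at 11.4, hsp-16.41 at 10.1 and the inducible hsp-70 at 5.78. The abundant hsp-1 and hsp-90 and the less abundant hsf-1 varied little, with a highest sample 1.40, 1.38 and 1.69 times the lowest. The same ratio was 4.82 for hsp-16.11, 5.09 for hsp-16.2, 4.44 for hsp-16.41 and 5.47 for hsp-70.

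The hsp-16.2 gene encodes a small heat shock protein that is nearly silent until heat and is widely used as a reporter of HSF-1 activity. In FPKM, replicates 1 to 4 were 8.65, 9.19, 8.06 and 15.02 in wild-type, 7.38, 12.5, 9.90 and 24.1 in ivd-1, 26.3, 10.2, 17.9 and 33.6 in bcat-1, 20.3, 19.5, 6.60 and 16.7 in the double mutant, and 7.38, 6.91, 8.43 and 22.6 in hecd-1. The values of bcat-1 overlapped those of wild-type through wild-type replicate 4 and bcat-1 replicate 2 alone. In the double mutant replicates 1, 2 and 4 lay above every wild-type sample and replicate 3 below, and the ranges of ivd-1 and hecd-1 spanned that of wild-type. The difference of bcat-1 from wild-type was 0.98 ± 0.45 (log2, SE, n = 4 against 4), with an adjusted p of 0.084 in limma with Benjamini-Hochberg adjustment.

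Its divergent partner hsp-16.41, another small heat shock protein, moved with it. Its replicates 1 to 4 were 7.26, 9.95, 7.90 and 15.5 FPKM in wild-type, 8.14, 9.43, 8.72 and 21.7 in ivd-1, 21.8, 10.3, 18.6 and 26.7 in bcat-1, 20.1, 21.3, 6.25 and 16.9 in the double mutant, and 6.02, 7.50, 8.13 and 22.7 in hecd-1. In every strain except the double mutant the same sample was the highest for both genes, and the ratio of hsp-16.41 to hsp-16.2 stayed between 0.753 and 1.104 in all 20 samples. Against wild-type the bcat-1 difference was 0.88 ± 0.44 (log2, SE, limma adjusted p = 0.12).

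The third readable small heat shock gene, hsp-16.11, was the highest of them in every sample. Its values were 20.2, 25.1, 18.3 and 31.0 FPKM in wild-type, 21.1, 29.8, 30.8 and 64.1 in ivd-1, 47.4, 21.2, 46.7 and 64.7 in bcat-1, 29.9, 26.2, 16.3 and 35.6 in the double mutant, and 28.5, 25.2, 37.4 and 78.4 in hecd-1. All strains overlapped wild-type, and bcat-1 did so only through its replicate 2. The limma difference from wild-type was 0.84 ± 0.39 in bcat-1 (adjusted p = 0.091), 0.71 ± 0.39 in hecd-1 (adjusted p = 0.21), 0.52 ± 0.39 in ivd-1 (adjusted p = 0.34) and 0.16 ± 0.39 in the double mutant (adjusted p = 0.77).

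The places on chromosome V did not keep 1 ratio. The level of hsp-16.11 divided by that of hsp-16.2 was 2.07 to 2.73 in wild-type, 2.38 to 3.11 in ivd-1, 1.80 to 2.61 in bcat-1, 1.35 to 2.47 in the double mutant and 3.47 to 4.43 in hecd-1. Every hecd-1 sample lay above every sample of the other strains. This ratio was looked at after the values were seen and has no test.

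Summed over the 5 small heat shock genes, the level was 34.2 to 61.6 FPKM in wild-type, 36.6 to 109.9 in ivd-1, 41.9 to 125.0 in bcat-1, 29.1 to 70.4 in the double mutant and 39.6 to 123.8 in hecd-1. By median the order was bcat-1 at 89.3, the double mutant at 68.1, ivd-1 at 50.6, hecd-1 at 47.9 and wild-type at 40.2 FPKM, and all neighbours in that order overlapped. With all samples and strain as the only term, none of hsp-16.2, hsp-16.41 and hsp-16.11 was called in bcat-1 against wild-type. Leaving out single libraries, the limma adjusted p reached at most 0.23, 0.26 and 0.24 in that order. Of 20 such removals 1 brought a call of these genes, that of bcat-1 replicate 2. Without it the differences from wild-type were 1.30 for hsp-16.2, 1.15 for hsp-16.41 and 1.16 for hsp-16.11, with limma adjusted p of 0.025, 0.048 and 0.019. That library also had the highest germline and oocyte marker sum of its strain, 6134 FPKM. With the mean level of those markers as a covariate the bcat-1 differences were 0.58 for hsp-16.2, 0.53 for hsp-16.41 and 0.59 for hsp-16.11 (limma adjusted p = 0.44, 0.48 and 0.37). That covariate was 7.236 to 7.575 in bcat-1 and 7.572 to 7.646 in wild-type, overlapping through bcat-1 replicate 2 alone. The fit therefore hardly separates bcat-1 from marker level.

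The heat-inducible HSP70 gene hsp-70 (I:9320325-9322519, minus strand) overlaps uggt-2 on the other strand. The libraries kept strand, but whether the counting used it is not given in the sources used here. Its replicates 1 to 4 were 6.22, 5.74, 5.07 and 7.26 FPKM in wild-type, 5.63, 7.17, 5.82 and 15.01 in ivd-1, 6.76, 4.25, 9.84 and 13.4 in bcat-1, 3.30, 3.14, 2.74 and 7.82 in the double mutant, and 4.77, 4.50, 4.59 and 14.2 in hecd-1. In the double mutant 3 of 4 samples lay below every sample of the other strains, and its replicate 4 lay above all of wild-type.

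With strain as the only term, none of the differences in hsp-70 passed the threshold. The double mutant differed by -0.91 ± 0.40 (log2, SE) from ivd-1, with a limma adjusted p of 0.074, by -0.93 ± 0.40 from bcat-1 (adjusted p = 0.089) and by -0.57 ± 0.40 from wild-type (adjusted p = 0.28). The interaction, which asks whether the double mutant departs from the sum of its single mutants, was -1.27 ± 0.57 (adjusted p = 0.074). Without the 5 replicate 4 samples, a choice made after the values were seen, the double mutant was lower than wild-type by -0.79 (adjusted p = 0.021) and than ivd-1 by -0.91 (adjusted p = 0.020), the interaction was -1.11 (adjusted p = 0.027), and the difference from bcat-1 was -0.996 (adjusted p = 0.11). The single libraries that bring an hsp-70 call when left out are double mutant replicate 4 (against ivd-1 -1.21, adjusted p = 0.027; interaction -1.58, adjusted p = 0.031), bcat-1 replicate 2 (against bcat-1 -1.20, adjusted p = 0.024; interaction -1.54, adjusted p = 0.026) and hecd-1 replicate 4 (against ivd-1 -0.91, adjusted p = 0.042; interaction -1.27, adjusted p = 0.042). The hecd-1 samples are in none of these comparisons and enter them only through the spread estimated over all strains. Other single removals brought no call, and the limma adjusted p reached up to 0.24 against ivd-1, 0.24 against bcat-1 and 0.16 in the interaction.

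**Figure D2:**
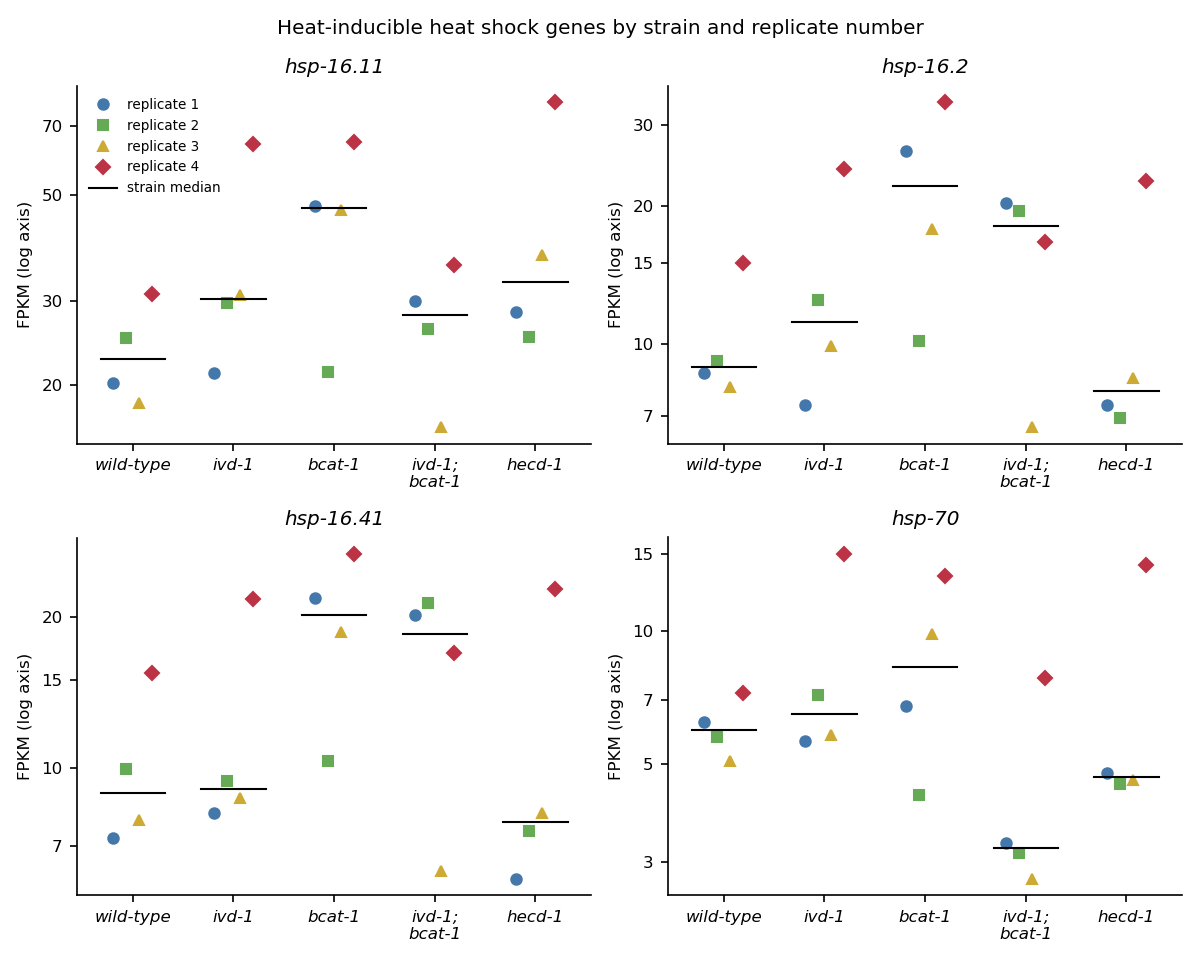
FPKM on a log axis for hsp-16.11, hsp-16.2, hsp-16.41 and hsp-70, with 1 point per sample, strains on the horizontal axis, replicate number by colour and shape, and a line at the strain median. Replicate 4 is the highest point in all 5 strains for hsp-16.11 and hsp-70 and in 4 of 5 for hsp-16.2 and hsp-16.41.

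The samples numbered 4 were high in all 4 inducible genes. Replicate 4 was the highest of its strain in 5 of 5 strains for hsp-16.11 and hsp-70, and in 4 of 5, all but the double mutant, for hsp-16.2 and hsp-16.41. Relative to the mean of the other replicates of the strain, replicate 4 was 1.47 to 2.58 times as high for hsp-16.11, 1.08 to 2.99 times for hsp-16.2, 1.06 to 3.15 times for hsp-16.41 and 1.28 to 3.07 times for hsp-70. For hsp-1, hsp-90 and hsf-1 the same ratio lay between 0.946 and 1.06.

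That pattern was uncommon among all genes. Of 15770 tested genes without unread zeros, replicate 4 was the highest in at least 4 strains for 1.03%, and some replicate number was for 7.2%. Besides the 4 members the lists of related genes held 3 such genes, namely F44E5.4 and F44E5.5, near-identical copies of a heat-inducible HSP70, and dnj-13, a J-domain partner of HSP70. They were picked out after their values were seen. F44E5.4 and F44E5.5 had strain medians of only 0.273 to 0.634 and 0.307 to 0.821 FPKM. The relative depth of the replicate 4 samples was 0.924 to 1.03, within the range of the rest, and the labels do not say what a replicate number shares between strains.

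The constitutive HSP70 hsp-1 (IV:17278959-17281330, plus strand), which folds new proteins in all cells, was lower in bcat-1 and slightly higher in hecd-1. Its replicates 1 to 4 were 1979, 1943, 1982 and 1862 FPKM in wild-type, 1931, 1902, 1900 and 1926 in ivd-1, 1669, 1842, 1581 and 1718 in bcat-1, 1780, 1783, 1873 and 1903 in the double mutant, and 2073, 2130, 2058 and 2217 in hecd-1. All bcat-1 samples lay below and all hecd-1 samples above the wild-type range. In limma hsp-1 fell by 0.19 ± 0.04 (log2, SE) in bcat-1 (adjusted p = 0.0013), which is 0.876 times the wild-type level, and rose by 0.13 ± 0.04 in hecd-1 (adjusted p = 0.043), 1.09 times. The differences were -0.02 ± 0.04 in ivd-1 (adjusted p = 0.76) and -0.08 ± 0.04 in the double mutant (adjusted p = 0.14). By mean the order was hecd-1, wild-type, ivd-1, double mutant and bcat-1, and of neighbours only hecd-1 and wild-type differed, since the double mutant and bcat-1 (0.11 ± 0.04, adjusted p = 0.065) missed the threshold and the double mutant against ivd-1 was -0.06 ± 0.04 (adjusted p = 0.24). A small nucleolar RNA, F26D10.24, lies within hsp-1 on the same strand.

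The single cytosolic HSP90 gene hsp-90 (V:14684918-14688545, plus strand, overlapping C47E8.4 on the other strand) had the same order at its ends. Its replicates 1 to 4 were 1788, 1742, 1842 and 1822 FPKM in wild-type, 1735, 1633, 1718 and 1777 in ivd-1, 1543, 1655, 1497 and 1646 in bcat-1, 1630, 1644, 1820 and 1730 in the double mutant, and 1859, 1954, 2065 and 2060 in hecd-1. The bcat-1 and hecd-1 values did not overlap those of wild-type, and the ivd-1 and double mutant values did. In limma hsp-90 fell by 0.18 ± 0.05 (log2, SE) in bcat-1 (adjusted p = 0.0038) and rose by 0.14 ± 0.05 in hecd-1 (adjusted p = 0.039), against -0.07 ± 0.05 in ivd-1 (adjusted p = 0.30) and -0.08 ± 0.05 in the double mutant (adjusted p = 0.21). The interaction was 0.17 ± 0.07 (adjusted p = 0.038), the double mutant being higher than the single mutants add up to.

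The gene hsf-1 (I:11953507-11963085, minus strand) rose in hecd-1 and was lowest by mean in ivd-1. Its replicates 1 to 4 were 46.5, 43.3, 44.6 and 47.1 FPKM in wild-type, 43.01, 35.3, 40.6 and 39.7 in ivd-1, 39.4, 48.0, 36.8 and 43.7 in bcat-1, 43.9, 45.3, 53.9 and 49.9 in the double mutant, and 52.7, 56.3, 59.5 and 59.0 in hecd-1. All hecd-1 samples lay above wild-type and all ivd-1 samples just below it, at 43.01 against 43.3 FPKM at the nearest, while bcat-1 and the double mutant overlapped wild-type. In limma hsf-1 rose by 0.32 ± 0.08 (log2, SE) in hecd-1 (adjusted p = 0.010), 1.25 times the wild-type level. The other differences from wild-type were -0.20 ± 0.08 in ivd-1 (adjusted p = 0.090), -0.12 ± 0.08 in bcat-1 (adjusted p = 0.25) and 0.08 ± 0.08 in the double mutant (adjusted p = 0.44).

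Direct comparisons of mutants showed more of hsf-1. It was higher in the double mutant than in ivd-1 by 0.28 ± 0.08 (log2, SE, limma adjusted p = 0.011), with no overlap of values, and lower in ivd-1 than in hecd-1 by -0.52 ± 0.08 (adjusted p = 0.00012). The double mutant and bcat-1 differed by 0.20 ± 0.08 (adjusted p = 0.073). The interaction was 0.40 ± 0.11 (adjusted p = 0.011). Germline and oocyte markers moved with these differences, with 9 of 18 higher and 3 lower in the double mutant against ivd-1, and 16 lower and 0 higher in ivd-1 against hecd-1. With the mean level of those markers as a covariate the differences were 0.09 between the double mutant and ivd-1 (adjusted p = 0.047) and -0.01 between ivd-1 and hecd-1 (adjusted p = 0.93), and the interaction was -0.06 (adjusted p = 0.52). The marker sums were at most 5766 FPKM in ivd-1 and at least 7068 in hecd-1, so for that pair the fit does not separate strain from marker level. In wild-type they were at least 6112 FPKM, also above all of ivd-1, so the interaction is not separated from marker level either. The double mutant, at 5749 FPKM or more, overlapped ivd-1 only narrowly. Left out singly, bcat-1 replicate 2 and double mutant replicate 1 brought the difference between the double mutant and bcat-1 past the threshold, at 0.27 (adjusted p = 0.012) and 0.24 (adjusted p = 0.042).

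**Figure D3:**
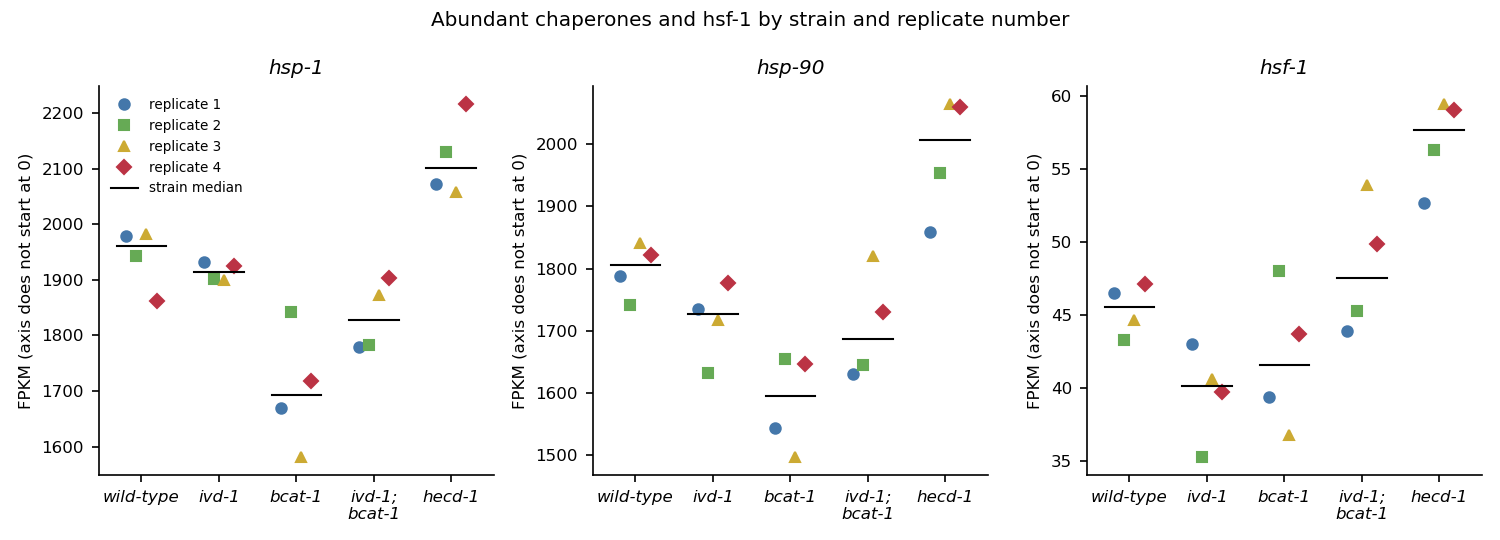
FPKM of hsp-1, hsp-90 and hsf-1, with 1 point per sample, strains on the horizontal axis, replicate number by colour and shape, and a line at the strain median. Axes do not start at 0, and the hecd-1 points lie above all wild-type points in each panel.

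Counts of members called were read against the share of all tested genes called. Of the 7 genes, 2 were called in bcat-1 against wild-type, both lower (hsp-1 and hsp-90), where 44.2% of 15957 genes were called, 33.9% higher and 10.3% lower, and 3 in hecd-1, all higher (hsp-1, hsp-90 and hsf-1), where 21.1% were, 14% higher and 7.15% lower. In ivd-1 0 were called, against 22.8% of all genes (19.9% higher and 2.88% lower), and 1 had an unadjusted p under 0.05 (hsf-1) in limma. In the double mutant 0 were called against wild-type, where 38.3% of all genes were (26.4% higher and 11.9% lower), and 0 had an unadjusted limma p under 0.05. Between mutants, 1, hsf-1, was called higher in the double mutant against ivd-1 (44.6% of all genes, 21.4% higher), 0 against bcat-1 (23.4%), where 4 had an unadjusted limma p under 0.05, and 3, all lower, in ivd-1 against hecd-1 (49.9%, 22.6% lower), namely hsf-1, hsp-1 by -0.15 ± 0.04 (adjusted p = 0.0089) and hsp-90 by -0.21 ± 0.05 (adjusted p = 0.0015). The interaction had 2, both positive, where 47.4% of all genes were called, 1944 of 15957 positive and 5625 negative. Members whose values did not overlap numbered 1 in ivd-1 against wild-type (34% of all genes), 2 in bcat-1 (38.2%), 0 in the double mutant (38%), 3 in hecd-1 (29.1%), 1 in the double mutant against ivd-1 (42.6%), 0 against bcat-1 (12.8%) and 3 in ivd-1 against hecd-1 (47.4%).

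**Figure D4:**
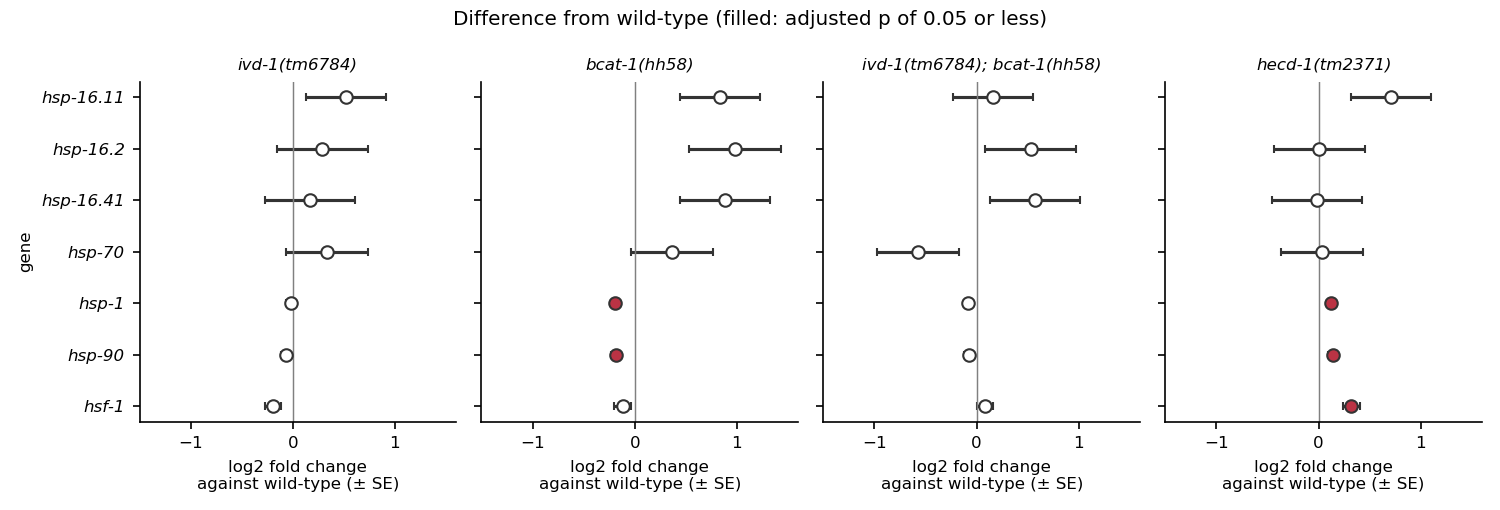
Log2 fold change against wild-type on the horizontal axis for the 7 readable genes in each mutant, with bars of 1 SE and filled points at an adjusted p of 0.05 or less. The bars of the hsp-16 genes and hsp-70 span 0.39 to 0.45 on either side, those of hsp-1 and hsp-90 0.04 and 0.05.

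The size of the error separates the groups of genes. A standard error of 0.04 let a change of 0.13 pass for hsp-1, while with an error of 0.45 a difference of 0.98 did not pass for hsp-16.2. The inducible genes are therefore not shown to be equal between strains.

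The medians of all tested genes also moved, by 0.17 in bcat-1, 0.11 in ivd-1, 0.10 in the double mutant and 0.08 in hecd-1 (log2, against wild-type), and -0.19 in the interaction. With the scaling of the deposited values 76.6% of the genes called in bcat-1, 87.3% in ivd-1, 69.0% in the double mutant and 66.1% in hecd-1 were higher than in wild-type, and with median-of-ratios scaling, which brings these medians near 0, the shares were 48.5%, 60.2%, 55.03% and 38.7%. Relative to these medians hsp-1 stood at -0.36 and hsp-90 at -0.35 in bcat-1 and hsf-1 at 0.24 in hecd-1. With that scaling hsp-1 in bcat-1 was at -0.38 and hsp-90 at -0.37, and hsf-1 was called lower in bcat-1 (-0.31, limma adjusted p = 0.016) and ivd-1 (-0.30, adjusted p = 0.034). The 3 hecd-1 calls were all lost under it, with 0.28 for hsf-1 (adjusted p = 0.072), 0.10 for hsp-90 (adjusted p = 0.35) and 0.08 for hsp-1 (adjusted p = 0.37), and in the double mutant hsp-1 (-0.17, adjusted p = 0.023) and hsp-90 (-0.17, adjusted p = 0.049) were called. With quantile normalization, which gives every sample the same distribution of values, the bcat-1 calls were lost, at -0.09 for hsp-1 (adjusted p = 0.20) and -0.10 for hsp-90 (adjusted p = 0.14). Under it hsf-1 was called lower in bcat-1 (-0.18, adjusted p = 0.045) and ivd-1 (-0.23, adjusted p = 0.026). The hecd-1 calls stayed, at 0.19 for hsp-1 (adjusted p = 0.039), 0.25 for hsp-90 (adjusted p = 0.0033) and 0.23 for hsf-1 (adjusted p = 0.038).

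The hecd-1 calls of hsp-1 and hsp-90 lay close to the threshold. Leaving out single libraries, 12 of 20 removed the call of hsp-1 and 7 of 20, all of wild-type or hecd-1, that of hsp-90, with the largest adjusted p at 0.14 and 0.12 without hecd-1 replicate 4, while hsf-1 kept its call without any 1 of the 20. Without all replicate 4 samples none of the 3 was called (adjusted p = 0.37 for hsp-1, 0.23 for hsp-90 and 0.11 for hsf-1), and in bcat-1 hsp-1 and hsp-90 were still called (adjusted p = 0.0076 and 0.025). The hsp-90 interaction lost its call without any 1 of 9 libraries, with the largest adjusted p, 0.086, without ivd-1 replicate 2.

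The levels of hsf-1, hsp-90 and hsp-1 moved with those of the germline. The 18 of 20 germline and oocyte marker genes that could be summed came to 6112 to 6484 FPKM in wild-type, 5027 to 5766 in ivd-1, 4606 to 6134 in bcat-1, 5749 to 6852 in the double mutant and 7068 to 7688 in hecd-1, and none of the markers was at 0 in all samples. Of the 18, 13 rose and 1 fell in hecd-1, 8 fell and 0 rose in ivd-1 and in bcat-1, and 1 rose and 6 fell in the double mutant (limma). With median-of-ratios scaling 2 rose and 1 fell in hecd-1, and 12 fell in ivd-1, 17 in bcat-1 and 8 in the double mutant, with 0 higher in those 3 strains. Across the 20 samples Pearson's r with the marker sum on the log2 scale was 0.96 for hsf-1, 0.92 for hsp-90 and 0.82 for hsp-1, against -0.46 to -0.17 for the inducible genes. This is a description over points that share strains and libraries.

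**Figure D5:**
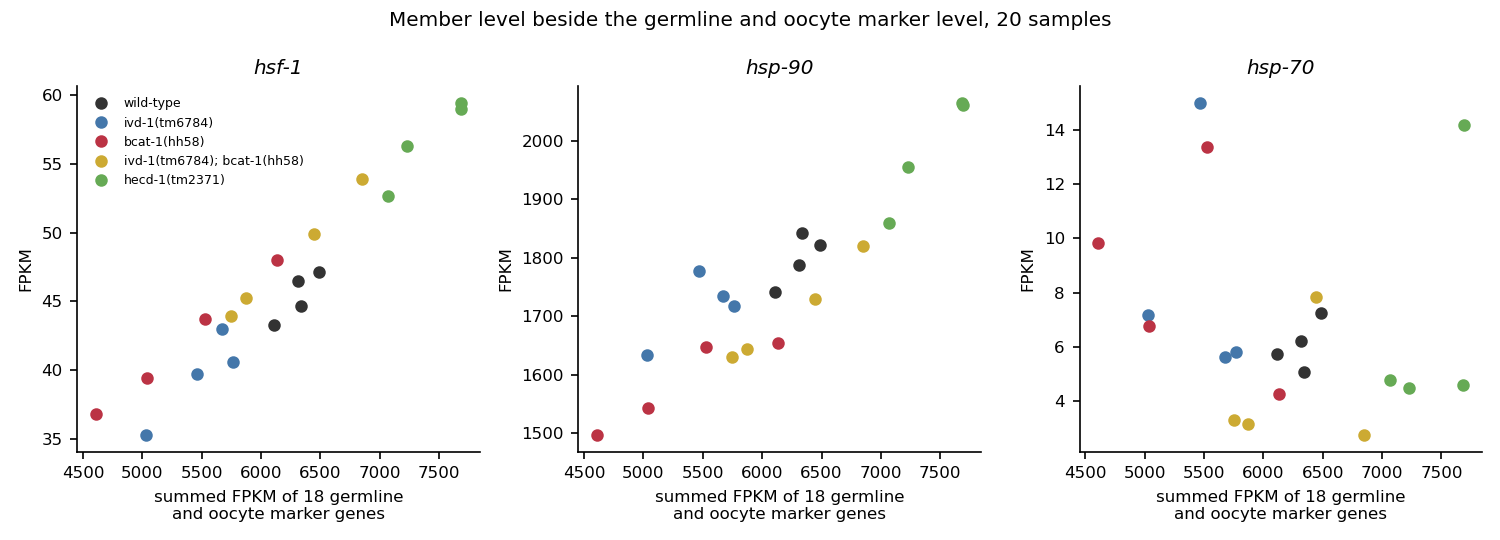
FPKM of hsf-1, hsp-90 and hsp-70 on the vertical axes against the summed FPKM of 18 germline and oocyte marker genes on the horizontal axes, 1 point per sample and 1 colour per strain. The points of hsf-1 and hsp-90 rise with the marker sum (r of 0.96 and 0.92 on the log2 scale) and those of hsp-70 do not (r of -0.26).

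Per 1000 FPKM of germline marker sum, hsf-1 stood at 7.04 to 7.36 in wild-type, 7.01 to 7.58 in ivd-1, 7.82 to 7.98 in bcat-1, 7.64 to 7.87 in the double mutant and 7.45 to 7.79 in hecd-1. On that measure wild-type and ivd-1 overlapped and the other 3 strains lay above wild-type. With the mean log2 level of those markers as a covariate in the fit, the hecd-1 differences were 0.04 for hsf-1, 0.02 for hsp-1 and 0.00 for hsp-90 (limma adjusted p = 0.48, 0.67 and 0.97). That covariate was 7.76 to 7.90 in hecd-1 and at most 7.70 in the other strains, so the fit does not separate this strain from marker level. The markers also include mex-3 and puf-5, which were among the 5 genes most like hsf-1 in these samples. In bcat-1 with that covariate hsp-1 was at -0.10 (limma adjusted p = 0.047) and hsp-90 at -0.05 (adjusted p = 0.19). The difference of hsf-1, in the opposite direction, was 0.15 (adjusted p = 0.0020). The covariate of bcat-1 overlapped that of wild-type through bcat-1 replicate 2 alone, so here too strain is hardly separated from marker level.

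The genes whose levels were most like a member across the 20 samples were looked up among 13601 candidates with a mean of 1 FPKM or more, by Pearson's r of log2 values, as a description with no test. For hsf-1 they were marc-3 (r = 0.991), egg-6, mex-3, puf-5 and gei-14 (0.986), of which mex-3 and puf-5 encode RNA-binding proteins of oocytes. The ratio of hsf-1 to mex-3 was 0.146 to 0.164 over all samples, a narrow range that follows from picking mex-3 by its r with hsf-1. For hsp-90 they were syf-1 (r = 0.982), F44E7.4, rpt-6, ddx-23 and cdc-48.3 (0.966), and for hsp-1 nduf-2.2 (r = 0.945), D2023.6, cars-1, cct-2 and zipt-7.1 (0.937), where rpt-6 is a proteasome ATPase and cct-2 a subunit of the cytosolic chaperonin. Among these candidates the inducible genes had no partner as close. The genes most like hsp-70 were emb-8 (r = 0.753), dpsm-1, unc-23, cuc-1 and ile-1 (0.691). Those most like the summed hsp-16 level were svop-1 (r = 0.734), R13H4.5, T19A6.4, K10G9.2 and ugt-17 (0.684). The members hsp-16.2 and hsp-16.41, whose ratio stayed between 0.753 and 1.104 in all 20 samples, were not candidates.

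Partners of the members were counted from lists chosen by function. The lists held 97 calls against wild-type over the 4 mutants. Of these 68 stayed, in the same direction, with median-of-ratios scaling and 72 with quantile normalization, by strain 7 and 8 of 13 in ivd-1, 31 and 32 of 36 in bcat-1, 21 and 15 of 22 in the double mutant and 9 and 17 of 26 in hecd-1. The shares of all genes called to read the counts against were 19.9% higher and 2.88% lower in ivd-1, 33.9% and 10.3% in bcat-1, 26.4% and 11.9% in the double mutant and 14% and 7.15% in hecd-1.

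The cytosolic chaperonin CCT is a ring that folds actin and tubulin. Of 8 subunits 7 fell and 0 rose in bcat-1, 4 rose and 0 fell in hecd-1, 3 fell in the double mutant and 0 were called in ivd-1, with list medians of -0.16, 0.10, -0.08 and -0.06 in that order beside medians over all genes of 0.17, 0.08, 0.10 and 0.11. With median-of-ratios scaling 8 fell in bcat-1, 8 in ivd-1 and 6 in the double mutant and 0 were called in hecd-1, with no change in the sign of a list median. In limma cct-7 fell by 0.20 ± 0.04 in bcat-1 (adjusted p = 0.00017) and rose by 0.19 ± 0.04 in hecd-1 (adjusted p = 0.0017), and cct-6 fell by 0.17 ± 0.03 and rose by 0.13 ± 0.03. In bcat-1 cct-4 and cct-1 both fell by 0.16 on the log2 scale. Of 6 prefoldin subunits, which hand proteins to CCT, 2 fell in bcat-1 (pfd-2 by 0.17 and pfd-3 by 0.09), 1 fell in the double mutant (pfd-2 by 0.16), 1 rose in hecd-1 (pfd-3, 0.11) and 0 were called in ivd-1, against 6, 4, 0 and 1 in those strains with median-of-ratios scaling, all of them lower.

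Co-chaperones bring clients to HSP90 and HSP70 and time their cycles. Of 10 HSP90 co-chaperones 6 rose and 0 fell in hecd-1, where 14% of all genes were called higher, among them cdc-37, which brings kinases to HSP90 (0.31 ± 0.05, limma adjusted p = 0.00037), the ubiquitin ligase chn-1 (0.25 ± 0.08, adjusted p = 0.034) and sti-1, the adaptor between HSP70 and HSP90 (0.19 ± 0.05, adjusted p = 0.0093). The others were daf-41, ahsa-1 and fkb-6. In bcat-1 3 fell, sti-1 by 0.15 and sgt-1 and fkb-6 by 0.13 each, and 0 rose, and in the double mutant the 1 called gene was the cyclophilin cyn-2, which fell by 1.59. Of 10 sperm markers 4 fell and 0 rose there, and they summed to 67.1 to 122.9 FPKM in wild-type, 112.6 to 180.6 in ivd-1, 45.4 to 141.9 in bcat-1, 19.2 to 50.8 in the double mutant and 49.4 to 126.5 in hecd-1. Their part in the cyn-2 result was not tested. Of the 10 HSP90 co-chaperones 1 rose in hecd-1 and 8 fell in bcat-1 with median-of-ratios scaling. Of 6 readable HSP70 co-chaperones 4 rose in hecd-1, namely dnj-13 (0.38 ± 0.05, adjusted p = 9.1e-05), the HSP70-interacting hip-1 (0.26 ± 0.04), the exchange factor bag-1 (0.26 ± 0.07) and dnj-12 (0.20), of which 2 of the list stayed called with median-of-ratios scaling. Another exchange factor, unc-23, known for keeping muscle attached, rose in bcat-1 (0.60 ± 0.14, adjusted p = 0.0017) and ivd-1 (0.40 ± 0.14, adjusted p = 0.043), with an interaction of -1.06 (adjusted p = 0.00056). The ivd-1 call was lost with median-of-ratios scaling (0.30, adjusted p = 0.094) and quantile normalization (0.31, adjusted p = 0.11). In the interaction the 8 muscle markers had the same direction, all 8 lower with a median of -0.53, where 5625 of 15957 genes were lower. Against wild-type 1 of them rose in bcat-1 and 0 in ivd-1, and 0 fell in either. Their medians there were 0.10 and 0.26, beside medians over all genes of 0.17 and 0.11. These markers summed to 2492 to 2710 FPKM in wild-type, 2877 to 3340 in ivd-1, 2272 to 2909 in bcat-1, 1742 to 2550 in the double mutant and 1985 to 2345 in hecd-1. Their part in the unc-23 result was not tested. In bcat-1 hip-1 and dnj-11 fell by 0.12 and 0.26, and in the double mutant dnj-13 fell by 0.15.

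Among 28 J-domain proteins 4 rose and 6 fell in bcat-1, 4 rose and 1 fell in hecd-1, 2 rose and 2 fell in the double mutant and 2 rose in ivd-1, and with median-of-ratios scaling the counts in bcat-1 were 2 higher and 20 lower. In bcat-1 dnj-24 (0.68 ± 0.13), dnj-14 (0.49 ± 0.06), related to the cysteine string protein of synapses, and dnj-27 (0.38 ± 0.08), of the endoplasmic reticulum, rose, and dnj-14 and dnj-27 also rose in the double mutant (0.51 and 0.42). With quantile normalization both dnj-27 calls were lost, at 0.02 in bcat-1 (adjusted p = 0.87) and 0.23 in the double mutant (adjusted p = 0.077). Of 8 neuron markers 8 rose in bcat-1, 7 in ivd-1, 3 in the double mutant and 1 in hecd-1, and they summed to 208.7 to 229.4 FPKM in wild-type, 235.3 to 240.8 in ivd-1, 262.2 to 279.8 in bcat-1, 246.7 to 254.8 in the double mutant and 236.1 to 252.5 in hecd-1. Their part in the dnj-14 result was not tested. The rises in hecd-1 of CCT and co-chaperone genes went with the same germline marker sums as those of hsp-1 and hsp-90, and with those markers as a covariate the counts higher and lower in hecd-1 were 1 and 1 for CCT, 2 and 0 for HSP90 co-chaperones, 3 and 1 for HSP70 co-chaperones and 1 and 4 for J-domain proteins. The marker sums of hecd-1 lay above those of every other strain, so these counts do not separate strain from marker level.

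Of 10 other small heat shock proteins read, 2 rose in ivd-1, 2 in bcat-1 and 2 in hecd-1, with 0 lower in each, and 3 rose and 2 fell in the double mutant, so in bcat-1 2 of 10 rose where 33.9% of all genes did. With median-of-ratios scaling 1 rose in ivd-1 and with quantile normalization 1 in hecd-1. The highest rise was of hsp-17, at 26.97 to 32.1 FPKM in wild-type and 49.1 to 115.4 in bcat-1 (1.42 ± 0.18, limma adjusted p = 5.6e-06), and hsp-17 also rose in ivd-1 (0.73 ± 0.18) and the double mutant (0.76 ± 0.18), with an interaction of -1.40 (adjusted p = 0.00051). The large relative hsp-43 rose in all 4 mutants, by 0.30 in ivd-1, 0.47 in bcat-1, 0.32 in the double mutant and 0.31 in hecd-1, and was picked out after its values were seen. Its call was lost in ivd-1 with median-of-ratios scaling (0.19, adjusted p = 0.068) and in hecd-1 with quantile normalization (0.22, adjusted p = 0.077). The embryonic small heat shock protein sip-1, close to hsp-1 in level per length at 1971 to 2080 FPKM in wild-type, was at 3326 to 3556 in hecd-1 (0.77 ± 0.10, adjusted p = 4.2e-05) and rose in the double mutant (0.45 ± 0.10). With the germline covariate these were 0.45 (adjusted p = 0.00013) and 0.49 (adjusted p = 5.9e-07). Of 7 tested embryo markers 5 rose in the double mutant, 3 in bcat-1, 2 in ivd-1 and 1 in hecd-1, with 0 lower, and the marker sum was 104.1 to 123.2 FPKM in wild-type, 92.6 to 118.9 in ivd-1, 104.7 to 147.7 in bcat-1, 134.2 to 167.7 in the double mutant and 124.4 to 152.6 in hecd-1. Their part in the sip-1 result was not tested. In the double mutant hsp-12.2 fell by 0.64 and hsp-12.3 by 0.55 on the log2 scale. Markers of the molting epidermis moved with hsp-17: their 8 genes summed to at most 29.1 FPKM in wild-type, 62.1 to 132.9 in ivd-1, 92.7 to 298.0 in bcat-1, 50.1 to 78.7 in the double mutant and 26.7 to 45.8 in hecd-1, none was at 0 in all samples, and their part in the hsp-17 result was not tested.

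Of 5 other HSP70 proteins 1 was called against wild-type, stc-1, which rose by 0.14 in bcat-1, less than the median of all genes there, and with median-of-ratios scaling 0 of the list rose and 1 fell. The chaperones of organelles, which answer to other stress responses, changed in another order. The mitochondrial chaperonin hsp-60 fell by 0.60 ± 0.04 in bcat-1, by 0.56 ± 0.04 in the double mutant and by 0.19 ± 0.04 in ivd-1 (limma adjusted p = 0.0010 in ivd-1), and trap-1, the mitochondrial HSP90, fell by 0.32 in bcat-1, by 0.40 in the double mutant and by 0.36 in hecd-1. The HSP70 proteins of the endoplasmic reticulum went apart in hecd-1, where hsp-4 rose by 0.40 ± 0.06 and hsp-3 fell by 0.41 ± 0.05, and hsp-3 rose in ivd-1 and bcat-1 by 0.25 each. Of the others, enpl-1 rose in ivd-1 (0.12) and bcat-1 (0.18), and mitochondrial hsp-6 rose in ivd-1 (0.10) and fell by 0.19 in bcat-1 and by 0.17 in the double mutant. With median-of-ratios scaling 1 of these organelle genes was higher in ivd-1 and 0 in bcat-1, against 3 and 2 with the deposited scaling.

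Of 12 genes read that are known to act on HSF-1 or on the heat shock response, 4 rose in ivd-1, 4 in bcat-1, 5 in the double mutant and 3 in hecd-1, and 0 fell against wild-type, where 19.9%, 33.9%, 26.4% and 14% of all genes rose. With median-of-ratios scaling the counts were 3 higher and 2 lower in ivd-1, 4 and 4 in bcat-1, 4 and 0 in the double mutant and 0 and 0 in hecd-1, and with quantile normalization 2 and 1, 3 and 2, 3 and 0, and 1 and 0. The zinc finger factor pqm-1 rose from 11.6 to 18.97 FPKM in wild-type to 29.3 to 42.4 in ivd-1 (1.14 ± 0.18, limma adjusted p = 0.00025), 29.2 to 58.4 in bcat-1 (1.57 ± 0.18) and 28.6 to 36.3 in the double mutant (1.01 ± 0.18). The histone demethylase jmjd-3.1 rose by 0.45 ± 0.11, 0.87 ± 0.11 and 0.62 ± 0.11 in those strains, the 14-3-3 protein ftt-2 by 0.25, 0.54 and 0.40, and the kinase hpk-1 by 0.17, 0.39 and 0.36. With quantile normalization the ivd-1 differences turned, at -0.03 for jmjd-3.1 (adjusted p = 0.78) and -0.08 for hpk-1 (adjusted p = 0.43), jmjd-3.1 kept its bcat-1 call at 0.26 (adjusted p = 0.012), and hpk-1 was not called in bcat-1 (0.06, adjusted p = 0.50) or the double mutant (0.18, adjusted p = 0.063). None of these 4 was called in hecd-1, where ddl-1, part of a complex that holds HSF-1 inactive, rose by 0.27, the FOXO factor daf-16 by 0.16 and the 14-3-3 protein par-5 by 0.11. The insulin receptor daf-2 was the fifth called in the double mutant, at 0.32. Of these hecd-1 calls those of ddl-1 and daf-16 were lost with either other scaling and that of par-5 with median-of-ratios scaling, as was the daf-2 call with either.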

How the data were processed

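The authors prepared stranded poly-A libraries from whole worms, sequenced them in pairs, aligned reads with Tophat2 and deposited Cufflinks FPKM per gene against an Ensembl annotation. Their count test used counts that were not used here. The table held 20 labelled columns, matched to samples by title, and 11 empty unlabelled columns, which were not used. FPKM are not counts, so limma 3.58.1 (R 4.3.3, trended prior variance, two-sided) was fitted to log2(FPKM + 0.5) with strain as the only term over 20 samples, on 15957 genes with at least 0.5 FPKM in at least 4 samples. Adjusted p are Benjamini-Hochberg values over those genes in each of 8 comparisons, called at 0.05 or less. Fold changes of low genes are understated on this scale. The script was tested on simulated data.

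The 10 genes and the lists of related genes were chosen with earlier results of these data known, so no list was tested as a whole. From each list the up to 4 called genes with the widest change against wild-type are named. For likeness the 5 non-member genes with the highest r are named. Both copies of hsp-16.1 and of hsp-16.48 share a symbol in Ensembl release 115, and RefSeq names at the same WBcel235 coordinates told them apart. Of 46284 identifiers 43325 matched a symbol, and hsp-10, dnj-6 and hsf-2 had no match. The work used Python 3.11.15 with pandas 2.3.3, numpy 2.4.6 and, for plots, matplotlib 3.10.9. Alternatives were pseudocounts of 0.1 and 1, no filter or a mean of at least 1 FPKM, median-of-ratios and quantile scaling, only the strains compared, a replicate block, a germline covariate and leaving out each sample. Fits without all replicate 4 samples and without genes at 0 in some samples were added after the data were seen. By the methods replicates came from independent experiments. The depth in reads is unknown, so no counting interval is given.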

Additional observations from a re-analysis of the deposited data

Results flagged for a closer look

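Dixon's gap is the distance of the highest or lowest sample to its nearest neighbour, as a share of the range. It was taken on FPKM, not on the log2 scale of the fits. Chance exceeds its 95% critical value in about 1 in 20 sets of normally distributed values, which FPKM need not be. In groups of 4 samples, 9 of 40 sets of values held a sample beyond it. Of these, 8 were high values in replicate 4: hsp-16.2 at 15.02 FPKM in wild-type and 22.6 in hecd-1, hsp-16.41 at 21.7 in ivd-1 and 22.7 in hecd-1, hsp-70 at 15.01 in ivd-1, 14.2 in hecd-1 and 7.82 in the double mutant, and the summed hsp-16 level at 123.8 FPKM in hecd-1. The ninth was a low value, the summed hsp-16 level of 29.1 FPKM in replicate 3 of the double mutant. The sets overlap, since the sum holds the hsp-16 genes and a pair of them share a promoter region, so these values are not independent. What the replicate 4 samples shared was not tested.

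For 2 genes the effect of bcat-1(hh58) differed with and without ivd-1(tm6784) by limma's interaction term with Benjamini-Hochberg adjustment: 0.40 ± 0.11 on the log2 scale for hsf-1 (adjusted p = 0.011) and 0.17 ± 0.07 for hsp-90 (adjusted p = 0.038). The germline and oocyte marker genes had the same direction, 17 of 18 higher and 0 lower in that interaction, where 1944 of 15957 genes were higher and 5625 lower. With their mean level as a covariate the interactions were -0.06 for hsf-1 and -0.05 for hsp-90 (limma adjusted p = 0.52 and 0.58). That covariate was 7.325 to 7.490 in ivd-1 and 7.572 to 7.646 in wild-type, with no overlap. Since it also carries the interaction itself, the fit does not separate the interaction from marker level.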

How the results depend on the processing

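Depth in reads, near-identical hsp-16 copies and the spread of the inducible genes limit these results. Of 7 genes in 8 comparisons, hsf-1 in bcat-1 was the only 1 called in opposite directions, lower with median-of-ratios scaling and quantile normalization and higher with the germline covariate, and it was not called with strain alone. Members called and all genes called are given where they moved by more than 1.5 times, and the cause was not tested except where fewer samples were fitted.

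With median-of-ratios scaling 0 members were called in hecd-1, 1 in ivd-1 and 2 in the double mutant against wild-type, and 3 in the double mutant against bcat-1, and 2198 genes were called in hecd-1. With quantile normalization 1 member, hsf-1, was called in bcat-1, where hsp-1 and hsp-90 lost their calls, and 1 in ivd-1, in the interaction and in the double mutant against bcat-1, and 2192 genes in hecd-1. Without a filter 1 member was called in hecd-1 and in the interaction. With only the strains compared 1 member was called in ivd-1, and 7 genes were called in the double mutant against bcat-1. With the germline covariate 0 members were called in hecd-1, in ivd-1 against hecd-1 and in the interaction, 2 in the double mutant against wild-type and 3 against ivd-1, and the genes called were 5284 in hecd-1, 917 in the interaction, 3213 in ivd-1 against hecd-1, and 4482 and 12 in the double mutant against ivd-1 and bcat-1. Without all replicate 4 samples, a choice made after the data were seen, 0 members were called in hecd-1, 1 in the double mutant and 1 in the interaction, and the genes called were 1351 in ivd-1, 836 in hecd-1, 3698 in the double mutant, 3332 and 9 in it against ivd-1 and bcat-1, 4619 in ivd-1 against hecd-1 and 3003 in the interaction.

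Signs turned, without a call, as follows (log2). With median-of-ratios scaling hsf-1 was -0.0064 in the double mutant, hsp-16.2 -0.034 and hsp-70 -0.012 in hecd-1, and hsp-90 0.0085 in the double mutant against ivd-1. With quantile normalization hsp-16.41 was -0.12 and hsp-70 -0.027 in ivd-1, hsp-70 -0.12 in bcat-1, hsp-1 0.0027 in the double mutant, hsp-16.2 -0.031 and hsp-70 -0.016 in hecd-1, hsp-1 0.0063 and hsp-90 0.051 in the double mutant against ivd-1, and hsp-16.41 -0.064 and hsp-70 -0.010 in ivd-1 against hecd-1. Without replicate 4 samples hsp-16.2 was -0.18 and hsp-70 -0.27 in hecd-1, and hsp-90 0.0014 in the double mutant against ivd-1. With the germline covariate hsf-1 was 0.027, hsp-1 0.060, hsp-90 0.040, hsp-16.2 -0.051 and hsp-16.41 -0.12 in ivd-1, hsp-16.41 0.36 in hecd-1, hsf-1 -0.036, hsp-90 -0.0094 and hsp-16.41 0.0021 in the double mutant against bcat-1, hsp-1 0.035, hsp-90 0.039, hsp-16.2 -0.49 and hsp-16.41 -0.49 in ivd-1 against hecd-1, and hsf-1 -0.063, hsp-1 -0.034, hsp-90 -0.050 and hsp-16.41 0.13 in the interaction. The 1 reversed value past the threshold was hsf-1 in bcat-1, 0.15 (limma adjusted p = 0.0020).

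Leaving out 1 sample at a time, members called ranged over 2 to 5 in bcat-1, 1 to 3 in hecd-1, 1 to 2 and 0 to 5 in the double mutant against ivd-1 and bcat-1, and 1 to 5 in the interaction, and genes called over 2269 to 4240 in ivd-1, 1964 to 4063 in hecd-1 and 448 to 7707 in the double mutant against bcat-1. The highest of these last, and the counts of 5, came without bcat-1 replicate 2, and the lowest, 448, without bcat-1 replicate 3. Values that changed sign ranged over -0.50 to 0.16 for hsp-16.11, -0.037 to 0.66 for hsp-16.2 and -0.13 to 0.59 for hsp-16.41 in ivd-1 against hecd-1, -0.37 to 0.20 for hsp-16.2, -0.42 to 0.20 for hsp-16.41 and -0.35 to 0.17 for hsp-70 in hecd-1, -0.028 to 0.52 for hsp-16.2 and -0.14 to 0.39 for hsp-16.41 in ivd-1, -0.58 to 0.078 for hsp-16.41 in the double mutant against bcat-1, and -0.040 to 0.013 for hsp-90 in it against ivd-1.

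The labels give replicate numbers but not what they share, and over all genes the mean correlation of deviations between same-numbered samples of 2 strains lay between -0.16 and 0.24, not over 0.1 in every pair, so the numbers were not taken as a pairing. With a replicate block 5 members were called in bcat-1, 1 in the double mutant against bcat-1, 2 in it against ivd-1 and 4 in the interaction. The added calls were hsp-16.11, hsp-16.2 and hsp-16.41 in bcat-1 (limma adjusted p = 0.020, 0.028 and 0.047), hsp-70 in the double mutant against ivd-1 and bcat-1 (adjusted p = 0.0056 and 0.020), and hsp-70 and hsp-16.11 in the interaction (adjusted p = 0.0061 and 0.021), and hsp-1 in hecd-1 was lost (adjusted p = 0.059).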
